A study of Mus musculus with 6 samples.

Results

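Transcripts of the Fcγ receptors, their signalling chain, the neonatal Fc receptor and the kinase Syk were examined in splenic monocytes of mice that had received vancomycin by mouth. The 7 genes were taken by symbol, by a rule that holds no measured value, though with earlier results of these data known: the activating receptors Fcgr1, Fcgr3 and Fcgr4, the inhibitory receptor Fcgr2b, the common γ chain Fcer1g, the neonatal receptor Fcgrt and Syk. Each symbol had 1 entry among the 46072 gene identifiers of the deposited tables, and all 7 were among the 16138 identifiers that passed the filter on low counts. The question put to these data was whether the activating receptors and the inhibitory receptor moved together or apart after vancomycin. Of the activating receptors Fcgr1 fell, to 0.799 times its Con level, and Fcgr3 and Fcgr4 did not pass the edgeR test. The inhibitory Fcgr2b was higher in every Van mouse without passing it, Syk rose to 1.30 times its Con level, and Fcer1g and Fcgrt showed no detectable difference. With 1 library left out, the call of Fcgr1 was lost in every fit. That of Syk was lost in every fit but the one without Van 3. DESeq2 called Fcgr2b (adjusted p = 0.00821) and Fcgr4 (adjusted p = 0.0499) as well, so which receptors pass depends on the tool.

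The mice were female C57BL/6 animals and were 8 to 10 weeks old by the study's methods. The Con group (n = 3) was gavaged with water. The Van group (n = 3) was gavaged with vancomycin, 1 mg per gavage and 2 mg per mouse per day, for 6 days. A rest free of antibiotics followed in both groups, of 8 days by the study's account of these mice (the labels give 6 to 8), after which splenic monocytes were enriched by negative magnetic selection and their RNA was sequenced without stimulation in culture. Another group of the study is not analysed here. By the study's methods 3 mice per group gave these 3 libraries per group, and mice were housed in groups. Which of them shared a cage is not given in the sources used here, so p-values measure the spread between these libraries.

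Fcγ receptors bind the constant part of IgG antibodies and let myeloid cells sense immune complexes and opsonised particles. The activating receptors of the mouse bind antibody through their own α chains and signal through the γ chain, whose activation motif (ITAM) is phosphorylated by Src family kinases and then recruits Syk. FcγRIIB carries an inhibitory motif (ITIM) instead and recruits the phosphatase SHIP1, which opposes the signal. The neonatal receptor FcRn works apart from this pathway: it binds IgG inside endosomes and returns it to the cell surface. In the mouse, non-classical (Ly6C-low) monocytes are known for high FcγRIV.

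The genes of the low-affinity receptors lie close together on chromosome 1 of the GRCm38 build: Fcgr2b at chr1:170958617-170976547 (minus strand), Fcgr4 at chr1:171018920-171029761 (plus strand), Fcgr3 at chr1:171051174-171064935 (minus strand) and Fcer1g at chr1:171229572-171234365 (minus strand). Fcgr1 lies at chr3:96282909-96293969 (minus strand), Fcgrt at chr7:45092990-45103851 (minus strand) and Syk at chr13:52583173-52648792 (plus strand). Since the activating Fcgr3 and the inhibitory Fcgr2b differ in their tails but are near copies in their IgG-binding part, the longest run of coding bases that both share without a mismatch is shown, as it marks where a short read could come from either gene. It spans an exon junction in both genes, between chr1:170966674-170968081 in Fcgr2b and chr1:171054167-171057792 in Fcgr3, and holds 129 bases:
Fcgr2b and Fcgr3: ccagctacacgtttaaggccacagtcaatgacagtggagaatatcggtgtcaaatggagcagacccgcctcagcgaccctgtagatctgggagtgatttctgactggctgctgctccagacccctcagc
Over a longer stretch of 512 bases the transcripts of both genes were 96.3% identical. Of all windows of 75 bases in the transcripts, 94 were shared by both genes, 5.42% of those of Fcgr3 and 1.63% of those of Fcgr2b. The study's methods state reads of 100 bases. The deposited counts step with 75, the divisor that turned coverage into counts, which need not be the length of the reads. With windows of 100 bases, 44 were shared, 2.54% of those of Fcgr3 and 0.753% of those of Fcgr2b. In all, 5.43% of the 75-base windows of Fcgr2b occurred in another gene. No window of either length in Fcgr1, Fcgr4, Fcer1g, Fcgrt or Syk occurred in another gene. Transcripts of Fcgr2b also held stretches at 95% identity or more with Cplx2, Gm47409 and Rab3c. The antisense gene Gm38204 overlapped 155 exon bases of Fcgr2b and was listed at a count of 0 in all 6 libraries. The small RNA genes Mir6546 (in Fcgr3) and Gm26110 (in Fcgr4) and the antisense gene Gm45669 (at Fcgrt) overlapped no exon base of those members.

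The promoters of the activating receptors are shown because these receptors share a γ chain, yet Fcgr1 fell after vancomycin and the fold changes of Fcgr3 and Fcgr4 lay above 0. Each line gives the 120 bases before the RefSeq start (GRCm38.p6), read along the gene's strand, with matches to the searched motifs in capitals: Fcgr1 at chr3:96293970-96294089 (minus strand), Fcgr3 at chr1:171059404-171059523 (minus strand) and Fcgr4 at chr1:171018806-171018925 (plus strand).
Fcgr1: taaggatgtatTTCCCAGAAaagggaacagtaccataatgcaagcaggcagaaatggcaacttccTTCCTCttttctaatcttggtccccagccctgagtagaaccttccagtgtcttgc
Fcgr3: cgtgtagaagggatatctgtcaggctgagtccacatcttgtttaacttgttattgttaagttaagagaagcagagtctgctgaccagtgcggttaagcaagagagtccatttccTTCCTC
Fcgr4: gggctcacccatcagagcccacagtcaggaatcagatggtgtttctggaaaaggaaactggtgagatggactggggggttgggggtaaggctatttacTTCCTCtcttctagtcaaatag
A match to the interferon-γ activation site TTCNNNGAA stood 109 bases before the start of Fcgr1 and in the 250 bases before the start of no other member. The motif was present in 7.02% of 32851 mouse promoter windows of that length. The letters GAGGAA, a core of the sites bound by PU.1 and other ETS factors of myeloid cells, were found on the minus strand (read as TTCCTC) before the start of all 3 activating receptors and on the plus strand before a second start of Syk, against 23.3% of all windows. The AP-1 letters TGANTCA (6.75% of windows) and the palindromic glucocorticoid response element (0.387% of windows) were found before no member. Both strands were searched, and the matches in capitals do not overlap. A match is a description of these letters and says nothing of a factor's presence.

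The libraries held between 43383919 and 61834407 estimated counts each, which are coverage sums divided by a read length and not single reads. The members ranged from 3166 counts for Fcgr1 in its lowest library to 59277 for Syk in its highest. Monocyte markers were high in all libraries (10 listed genes summing to 8399 to 10404 FPKM), and T cell and NK cell lists summed to at most 17.9 and 6.75 FPKM. Markers of red pulp macrophages, which also carry Fcγ receptors, were far from absent: the 10 listed genes summed to 1573 to 1914 FPKM in Con and 1826 to 2469 FPKM in Van. In such bulk RNA, fewer cells of a type and less RNA per cell cannot be told apart.

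Levels are given first in FPKM, fragments per kilobase of transcript scaled to library size, since that unit is scaled to length and allows genes to be set side by side. In the Con group the γ chain Fcer1g was highest at 774.5 ± 67.6 FPKM (SD, n = 3), followed by Fcgr3 at 201.0 ± 7.2, Fcgr4 at 131.7 ± 18.4, Syk at 117.7 ± 4.6, Fcgr2b at 81.4 ± 7.1, Fcgrt at 54.3 ± 7.6 and Fcgr1 at 24.5 ± 0.7. Of neighbours in this order, Fcgr4 and Syk overlapped between mice and all others were apart. The order was the same in the Van group, with means from 820.6 ± 4.5 FPKM for Fcer1g down to 19.7 ± 0.8 FPKM for Fcgr1. There Fcgr3 and Fcgr4, and Fcgr4 and Syk, were not distinguishable by the spread of the mice. The plot of FPKM by mouse shows each value.

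**Figure D1:**
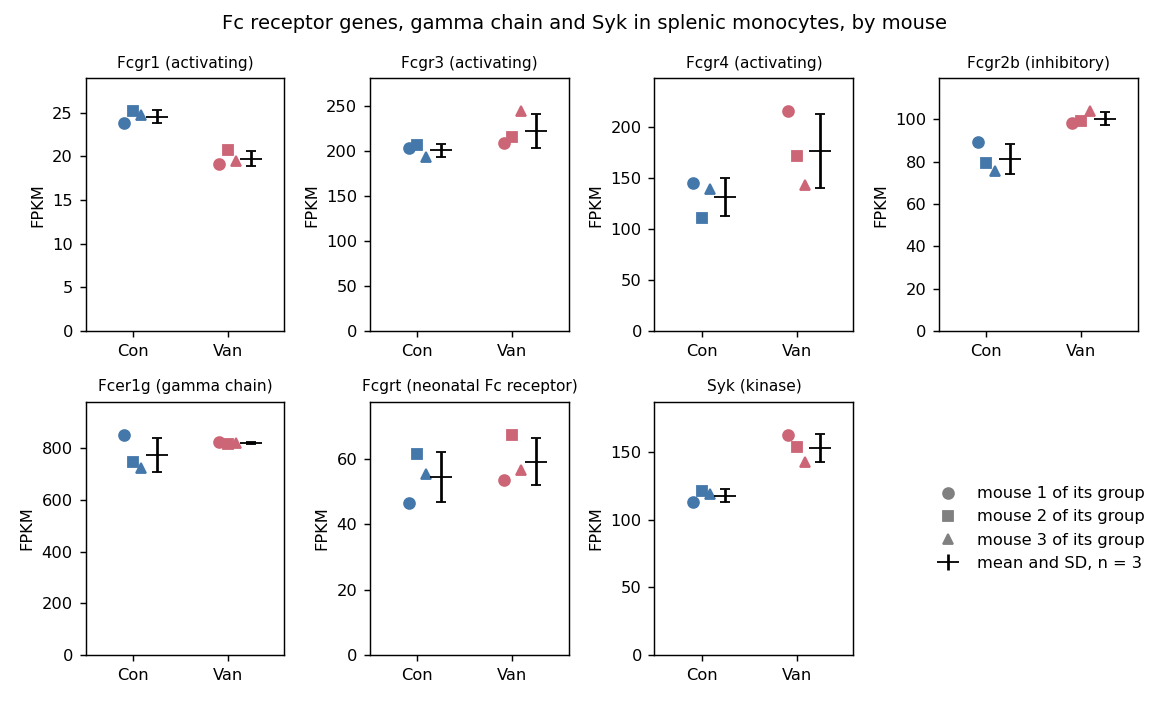
FPKM (y axes, from 0) of the 7 genes in each Con (blue) and Van (red) mouse, with the group mean and SD (n = 3) in black. Fcgr1 lies lower in all Van mice (19.1 to 20.7 FPKM) than in the Con mice (23.8 to 25.1), and Syk lies higher (142.3 to 162.4 against 112.6 to 121.4).

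Among the activating receptors, Fcgr1 fell. It encodes FcγRI, the high-affinity receptor that can hold single IgG2a molecules. It was at 23.8, 25.1 and 24.7 FPKM in the Con mice and at 19.1, 20.7 and 19.5 FPKM in the Van mice. Every Van mouse was below every Con mouse, and the SDs were 0.7 FPKM in Con and 0.8 FPKM in Van. In CPM (counts relative to library size, with the trimmed-mean factors of edgeR) the means were 75.6 ± 2.2 in Con and 60.4 ± 1.6 in Van, a log2 fold change of -0.32 ± 0.06 (SE; 95% interval -0.45 to -0.19; edgeR quasi-likelihood test, Benjamini-Hochberg adjusted p = 0.0328), or 0.799 times the Con level. The call was lost when any 1 of the 6 libraries was left out, with adjusted p between 0.0679 and 0.127, while the fold change stayed between -0.34 and -0.30.

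Fcgr3, which encodes the low-affinity FcγRIII found on most myeloid cells, did not pass the test. The Con mice were at 203.7, 206.4 and 192.9 FPKM and the Van mice at 208.3, 215.1 and 243.9 FPKM. The groups did not overlap, but Van 1 lay barely above Con 2 and only Van 3 stood clear of the rest. The log2 fold change was 0.13 ± 0.08 (95% interval -0.04 to 0.31, edgeR adjusted p = 0.438).

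Fcgr4, which encodes FcγRIV, a receptor for IgG2a and IgG2b on non-classical monocytes, macrophages and neutrophils, had the largest SE of the 7 fold changes. It was at 144.9, 110.7 and 139.6 FPKM in Con and at 215.4, 171.2 and 143.0 FPKM in Van. Van 3 lay below Con 1, so the groups overlapped, while Van 1 was the highest of all. The log2 fold change of 0.41 ± 0.15 (95% interval 0.07 to 0.76) was the highest fitted value among the 7 genes, and its edgeR adjusted p was 0.222. It was 0.24 without Van 1 and 0.54 without Van 3. With DESeq2, adjusted p was 0.0499.

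The inhibitory receptor Fcgr2b was at 89.2, 79.4 and 75.5 FPKM in Con and at 98.1, 99.0 and 103.7 FPKM in Van. All Van mice lay above all Con mice, and the Van values were close together (100.3 ± 3.0 FPKM) where the Con values spread more (81.4 ± 7.1 FPKM). The log2 fold change was 0.34 ± 0.09 (95% interval 0.13 to 0.55), or 1.27 times. Its edgeR adjusted p over all genes was 0.112, and with DESeq2 the adjusted p was 0.00821. When the counts of Fcgr2b and Fcgr3 were summed into 1 feature, on account of the shared run printed above, the log2 fold change was 0.22 with an edgeR adjusted p of 0.187.

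The plot of fold changes sets the members side by side. By edgeR, 2 of the 7 genes had an adjusted p of 0.05 or less, against 2.00% of all genes tested. Syk was the member called higher (1.08% of all genes were) and Fcgr1 the member called lower (0.917% of all genes were). DESeq2 called 4 of 7, namely Fcgr1, Fcgr2b, Fcgr4 and Syk, against 7.36% of the genes to which it gave an adjusted p. The same 4 genes had an unadjusted edgeR p under 0.05, against 16.5% of all genes. The CPM of the groups did not overlap for 4 of 7 genes (Fcgr1, Fcgr3, Fcgr2b and Syk), against 22.5% of all genes. With 7 genes these shares are a description. Of the fitted fold changes, 6 were above 0 and Fcgr1 alone was below.

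**Figure D2:**
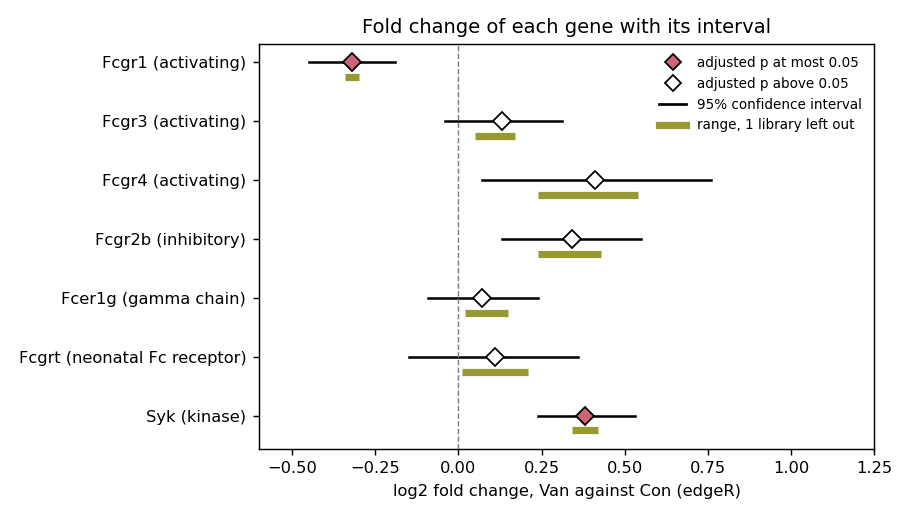
Log2 fold change of Van against Con (x axis) for each of the 7 genes, with the edgeR 95% confidence interval in black and, below it, the range over the 6 fits that each left out 1 library. Filled diamonds mark adjusted p of at most 0.05 (Fcgr1 at -0.32 and Syk at 0.38), and the range lies on 1 side of 0 for every gene.

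The balance of activating to inhibitory receptors was then read within each mouse as a ratio of FPKM values. The ratio of Fcgr1 to Fcgr2b was 0.266, 0.316 and 0.327 in the Con mice and 0.194, 0.209 and 0.188 in the Van mice. It was lower in all Van mice, and the means differed by -0.62 ± 0.10 (SE) on the log2 scale. An exact two-sided permutation test gave p = 0.10, the smallest that 3 against 3 allows (adjusted over the 3 ratios tested, 0.30). The ratio of Fcgr3 to Fcgr2b was 2.28, 2.60 and 2.56 in Con and 2.12, 2.17 and 2.35 in Van, with groups that overlapped at Con 1 and Van 3. Its log2 difference was -0.16 ± 0.07 (exact permutation p = 0.20, adjusted 0.30). The ratio of Fcgr4 to Fcgr2b was 1.62, 1.39 and 1.85 in Con and 2.196, 1.73 and 1.38 in Van, and the groups overlapped. Its log2 difference of 0.11 ± 0.23 was smaller than its error (exact permutation p = 0.70, adjusted 0.70) and was -0.06 without Van 1.

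With the 3 activating receptors summed, the ratio to Fcgr2b was 4.17, 4.31 and 4.73 in Con and 4.51, 4.11 and 3.92 in Van. The groups overlapped, and the means of 4.40 ± 0.29 and 4.18 ± 0.30 differed by less than their SDs. Fcgr1 contributed least to this sum. Of the summed FPKM of the 4 receptors, Fcgr1 made up 5.15% to 5.96% in Con and 3.52% to 4.08% in Van. The shares of the other receptors overlapped between groups: Fcgr3 had means of 45.9% and 42.9%, Fcgr4 of 30.0% and 33.9% and Fcgr2b of 18.5% and 19.3% in Con and Van. The sum itself was 422 to 462 FPKM in Con and 506 to 541 FPKM in Van, a description for which no test was made.

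**Figure D3:**
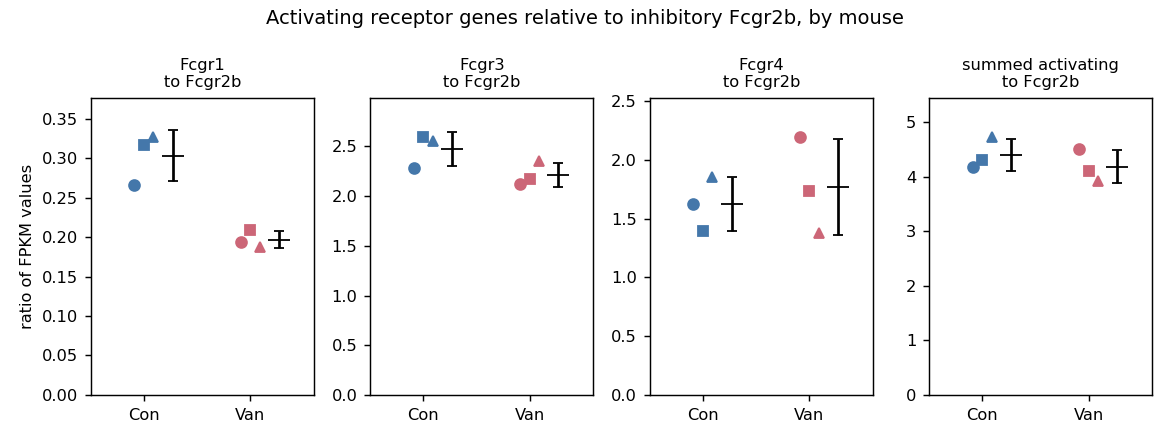
Ratio of the FPKM of each activating receptor, and of their sum, to the FPKM of inhibitory Fcgr2b (y axes, from 0) in each Con (blue) and Van (red) mouse, with mean and SD (n = 3) in black. The Fcgr1 ratio is lower in all Van mice (0.188 to 0.209 against 0.266 to 0.327), and the other ratios overlap.

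The γ chain Fcer1g, on which the surface expression and signal of the activating receptors depend, showed no detectable change. It was at 851.5, 747.0 and 724.9 FPKM in Con and at 824.2, 815.6 and 822.0 FPKM in Van. Con 1 was the highest and the other Con mice the lowest, with the Van mice between them. The log2 fold change was 0.07 ± 0.07 (95% interval -0.09 to 0.24, edgeR adjusted p = 0.697). Per unit length its transcripts exceeded those of the 3 activating receptors together by 2.03 to 2.29 times in Con and by 1.86 to 2.02 times in Van.

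Syk, the kinase that docks on the phosphorylated ITAM, rose. It was at 112.6, 121.4 and 119.2 FPKM in the Con mice and at 162.4, 154.0 and 142.3 FPKM in the Van mice. The lowest Van mouse was above the highest Con mouse by more than the SD of either group (4.6 and 10.1 FPKM). The log2 fold change of 0.38 ± 0.06 (95% interval 0.24 to 0.53) came with an edgeR adjusted p of 0.0283. The call held without Van 3 (0.0495) and was lost without any of the other 5 libraries, with adjusted p up to 0.123 and a fold change between 0.34 and 0.42. The ratio of Syk to its docking chain Fcer1g was 0.132, 0.163 and 0.164 in Con and 0.197, 0.189 and 0.173 in Van.

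Fcgrt, which encodes the heavy chain of FcRn, was at 46.3, 61.4 and 55.2 FPKM in Con and at 53.4, 67.2 and 56.6 FPKM in Van. The groups overlapped in most of their range. The log2 fold change was 0.11 ± 0.11 (95% interval -0.15 to 0.36, edgeR adjusted p = 0.704). Its partner chain B2m, the light chain of FcRn and of MHC class I, had a log2 fold change of -0.06 (adjusted p = 0.771).

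The rest of the pathway was read from 8 lists of genes around these receptors. Of 136 listed genes tested, 6 were called, 3 higher and 3 lower, against 2.00% of all genes tested. The median log2 fold change of the 136 was -0.04, beside -0.0014 over all genes tested. The plot of the pathway lists shows each gene. None of the 8 Src family kinases tested, which phosphorylate ITAMs, was called by edgeR. Among them Lyn and Fgr, both abundant in myeloid cells, had log2 fold changes of 0.08 and -0.03. The smallest p in that list was that of Blk, a kinase of B cells, with a Con mean of 3.57 CPM and a Van mean of 1.39 CPM (log2 fold change -1.35 ± 0.41, edgeR adjusted p = 0.145, DESeq2 adjusted p = 0.0221).

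Of 30 substrates and adaptors of Syk tested, 14 had fold changes above 0, and only Pik3r1 was called. It encodes p85α, the regulatory subunit through which PI3-kinase binds phosphorylated receptors. It was at 97.3, 96.5 and 103.3 CPM in Con and at 131.6, 123.6 and 124.5 CPM in Van. The groups were apart, with a log2 fold change of 0.35 ± 0.06 (edgeR adjusted p = 0.0283; 0.0681 to 0.117 without any 1 library).

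On the inhibitory side, 1 of 19 signalling genes tested was called. Ubash3b, which encodes the phosphatase STS-1 that dephosphorylates Syk and related kinases, was at 55.4, 50.8 and 58.0 CPM in Con and at 40.4, 38.7 and 41.6 CPM in Van. It fell by 0.44 ± 0.07 on the log2 scale (edgeR adjusted p = 0.0255; 0.0527 to 0.124 without any 1 library). The phosphatases that FcγRIIB and other ITIM receptors recruit were not called: Inpp5d (SHIP1) had a log2 fold change of -0.04 (adjusted p = 0.810) and Ptpn6 (SHP-1) of -0.14 (adjusted p = 0.204).

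Of 17 other receptors with ITIMs tested, 3 were called. Siglece, a sialic acid receptor of myeloid cells, rose from 65.1 ± 2.9 CPM to 91.3 ± 8.2 CPM (log2 fold change 0.49 ± 0.08, edgeR adjusted p = 0.0255). Pecam1 (CD31), an adhesion receptor of leukocytes and endothelium, rose from 57.9 ± 6.7 CPM to 127.6 ± 38.6 CPM (log2 fold change 1.14 ± 0.19, adjusted p = 0.0308), and Van 1 at 170.3 CPM was its highest library. Clec12a, an inhibitory lectin receptor, fell from 225.0 ± 3.6 CPM to 183.7 ± 9.0 CPM (log2 fold change -0.29 ± 0.06, adjusted p = 0.0411). The call of Clec12a was lost without any 1 library (0.0716 to 0.165). That of Siglece held only without Van 1 and that of Pecam1 only without Van 1 or Van 3.

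In the remaining lists, Dock2, an activator of the GTPase Rac, was the only one of 42 genes of phagocytic actin remodelling tested that was called. It fell from 724.8 ± 31.7 CPM to 598.0 ± 19.7 CPM (log2 fold change -0.28 ± 0.06, edgeR adjusted p = 0.0470; 0.0681 to 0.189 without any 1 library). Of the 42 actin genes, 28 had fold changes below 0, beside 8134 of 16138 over all genes tested. Their summed FPKM was 5838 to 6165 in Con and 5708 to 5792 in Van. None of 5 tested subunits of the NADPH oxidase was called by edgeR, and their summed FPKM was 1242 to 1293 in Con and 1182 to 1232 in Van. The smallest p there was that of Ncf1 (p47phox) at a log2 fold change of -0.27 (edgeR adjusted p = 0.151, DESeq2 0.0366). None of 7 other ITAM chains and related adaptors was called. There the smallest p was that of Cd247, the ζ chain of T and NK cells, with means of 1.52 CPM for Con and 0.653 CPM for Van (log2 fold change -1.22, adjusted p = 0.122). None of 8 other Fc receptor genes tested was called, and 7 of them had fold changes below 0. Trim21, a receptor for IgG in the cytosol, had the smallest p (log2 fold change -0.28, edgeR adjusted p = 0.115). In that list Fcgbp was listed at 0 in all libraries. By DESeq2, 15 of the 136 tested genes in the 8 lists were called, against 7.36% of all genes to which it gave an adjusted p. With 1 library left out, edgeR called between 0 (without Con 2, Con 3 or Van 2) and 2 (without Van 1); the 1 gene called without Con 1 was Pram1, not called in the full fit.

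**Figure D4:**
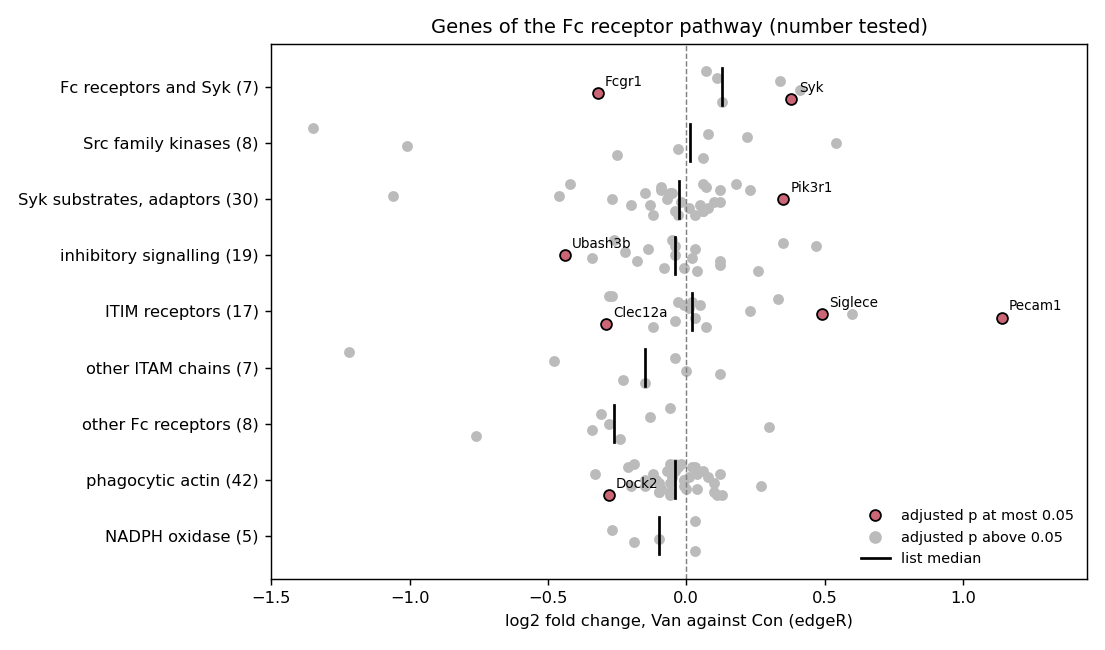
Log2 fold change of Van against Con (x axis) for each tested gene of the receptor set and of the 8 pathway lists (y axis, number tested in parentheses), with the list median as a black line. Named red points are the genes with an edgeR adjusted p of at most 0.05, 3 higher (Pik3r1, Siglece and Pecam1) and 3 lower (Ubash3b, Clec12a and Dock2) outside the receptor set.

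The genes whose profile over the 6 libraries lay closest to a member were taken from 8487 genes with a mean of at least 10 CPM, by the root mean square difference of centred log2 CPM. Among those closest to Syk were 6430548M08Rik (0.0251 on the log2 scale), Ptpn23 (0.0469), Atad2 (0.0498) and Ap5z1 (0.0513), against a spread of 0.202 of Syk itself. Closest to Fcgr2b, whose own spread was 0.211, were Tmem214 (0.0393), Tsc22d3 (0.0421), Pdxk (0.0482), Heatr3 (0.0487) and Mrpl12 (0.0507). Tsc22d3 encodes the glucocorticoid-induced leucine zipper. Closest to Fcgr4 were Pag1 (0.0761), Lilra5 (0.0817), Nfkbiz (0.0906), Smpdl3b (0.0915) and Cpd (0.0936), against its own spread of 0.290. Pag1 encodes an adaptor that holds the kinase Csk at the membrane, and Nfkbiz the nuclear regulator IκBζ. All profiles share the same 6 libraries and 2 groups, so closeness is a description.

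Several marker lists moved with the groups or with single libraries, and their part in the members' values was not tested. By the methods the selection was against cells with, among others, the B cell antigen CD45R and the neutrophil antigen Ly-6G. The purity that the study states was not complete, so some of these cells can remain. B cells carry both Fcgr2b and Syk but neither Fcer1g nor the activating receptors. All 10 B cell markers were lower in Van, and their summed FPKM was 337 to 396 in Con and 252 to 278 in Van, opposite in direction to Fcgr2b and Syk. Nearly all of this sum was Ighm, called lower (log2 fold change -0.52, edgeR adjusted p = 0.0162), while the defining B cell genes Ms4a1 (at most 0.397 FPKM) and Pax5 (at most 0.114 FPKM) were near 0 in all libraries and Cd79b, a chain of the B cell receptor, was at 7.25 to 9.99 FPKM. The call of Ighm held without Con 1 or Van 1 and was lost without any of the other 4 libraries (adjusted p up to 0.0890).

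Among monocyte subsets, the list of 10 non-classical monocyte markers summed to 3049, 2863 and 3284 FPKM in Con and to 3789, 3194 and 2842 FPKM in Van. The groups overlapped, edgeR called no marker of this list, and DESeq2 called Eno3 (log2 fold change -0.46, adjusted p = 0.0238). Van 1 was the highest and Van 3 the lowest library, and Van 1 and Van 3 were also the highest and lowest Van libraries for Fcgr4. The list of 10 classical monocyte markers summed to 1749 to 2143 FPKM in Con and to 1619 to 2556 FPKM in Van. Within it Ccr2, the receptor by which classical monocytes leave the marrow, fell (log2 fold change -0.83 ± 0.14, adjusted p = 0.0283), as Fcgr1 did, and Vcan, a matrix proteoglycan of classical monocytes, rose (1.54 ± 0.26, adjusted p = 0.0309). With 1 library left out, the call of Ccr2 held only without Van 1 or Van 3 (adjusted p up to 0.0991) and that of Vcan only without Van 1 (up to 0.123). Ly6c2, which defines this subset, had a log2 fold change of -0.34 (edgeR adjusted p = 0.240, and 0.0436 without Van 3).

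Of the red pulp macrophage markers, 9 of 10 had fold changes above 0 and none was called by edgeR, while DESeq2 called 2, Vcam1 and C1qb. Vcam1 had the smallest p (log2 fold change 0.46, edgeR adjusted p = 0.0621, DESeq2 0.000429), and the defining factor Spic was at 0.07 (adjusted p = 0.830). The summed level of this list had means of 1778 FPKM in Con and 2113 FPKM in Van and was highest in Van 2. Its part in the members' values was not tested. Erythroid markers were 102 to 205 FPKM in Con and 344 to 774 FPKM in Van, with 5 of 9 called higher (Hbb-bs, Hbb-bt, Hba-a1, Hba-a2 and Alas2). Of these 5, 4 were called without Van 3, only Alas2 without Van 1, and none without any of the other libraries (edgeR adjusted p up to 0.147). Neutrophil markers, a cell type rich in Fcgr3 and Fcgr4, summed to 110 to 113 FPKM in Con and 114 to 141 FPKM in Van, with none called by edgeR and Ly6g listed at 0 in all libraries. Most of that sum was Csf3r (86.5 to 88.0 FPKM in Con and 100.0 to 110.0 FPKM in Van), which DESeq2 called (adjusted p = 0.00373), while 6 of the 8 neutrophil markers tested had fold changes below 0 and the median of the list was -0.64 on the log2 scale. The dendritic cell gene Clec9a fell (log2 fold change -1.12, adjusted p = 0.0131; lost without Con 3 or Van 2, at up to 0.0758). In its list 8 of 9 markers had fold changes below 0 and DESeq2 called 3 (Clec9a, Xcr1 and Batf3). The sums of this list, of which Itgax was the largest member, overlapped, as they did in 11 of the 14 marker lists in all.

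**Figure D5:**
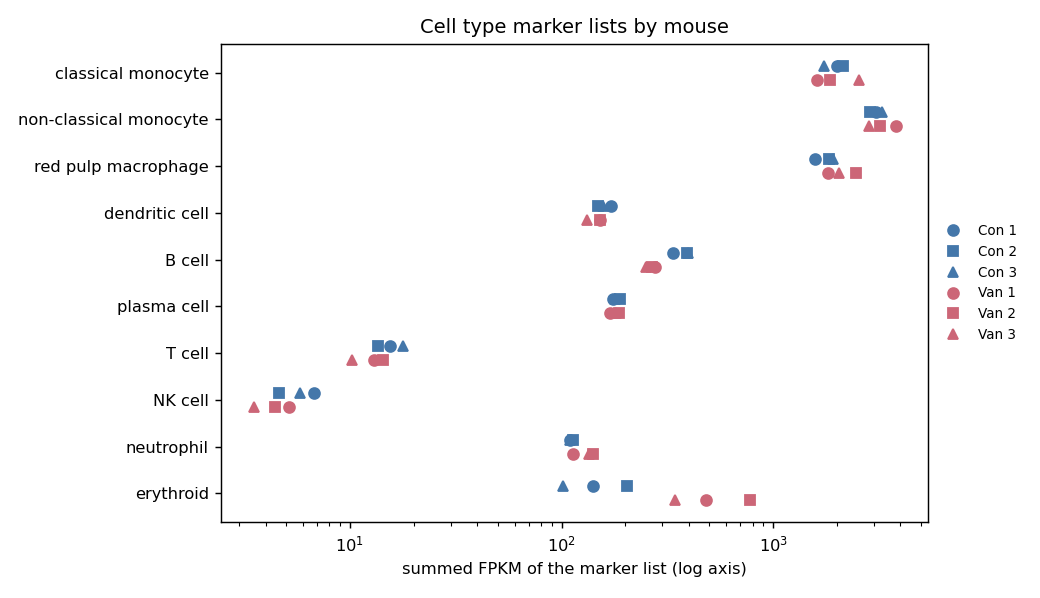
Summed FPKM of 10 of the marker lists (x axis, log scale) in each Con (blue) and Van (red) mouse. The erythroid sum is higher in all Van mice (344 to 774 against 102 to 205 FPKM), the B cell sum lower (252 to 278 against 337 to 396 FPKM), and the non-classical monocyte sums overlap.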

How the data were processed

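Libraries of polyadenylated RNA were made with a stranded kit from splenic monocytes of 3 mice per group. Per the labels and the study's methods, the authors aligned reads to GRCm38 with HISAT2 (version 2.2.1) and SAMtools (1.9) and assembled and quantified transcripts with StringTie (2.1.3). They deposited FPKM per gene, from Ballgown, and estimated counts per gene, from tximport. The estimated counts are coverage multiplied by a read length, not whole reads: with 75 bases, between 52.3% and 55.0% of coverage sums came out whole within 0.05. The main fit therefore read them as deposited, and the scale of 0.375 to fragments was an alternative. Groups were taken from the labels.

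Estimated counts were rounded and tested with edgeR 4.0.16 (R 4.3.3; trimmed-mean scaling, at least 10 counts by filterByExpr, quasi-likelihood test, Benjamini-Hochberg over 16138 identifiers, calls at an adjusted p of at most 0.05). Alternatives were DESeq2 1.42.0, other scalings and filters, 1 identifier per symbol, limma 3.58.1 on log2(FPKM + 1), a replicate block and each library left out. The fitting script was tested on simulated data. Ratios of genes used FPKM and exact permutation tests. The members and the gene lists were chosen with earlier results of these data known. Named genes were the 7 members, listed genes called (or, in a list without one, that with the smallest p), the 5 nearest profiles to Syk, Fcgr2b and Fcgr4, markers called or at 0, and genes overlapping or nearly matching a member; some genes under this rule are not reported here. Lyn, Fgr, Inpp5d, Ptpn6, B2m, Ms4a1, Pax5, Cd79b, Csf3r, Ly6c2, Vcam1, C1qb, Eno3, Pram1, Xcr1, Batf3, Itgax and Spic were named outside this rule, after their values were seen. Sequences came from GENCODE and RefSeq tables, which held a promoter for 7 of 7 members. Replicates of a group differed by more than sampling noise (chi-square per gene 20.7 to 42.8), so none was counted as a duplicate.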

Additional observations from a re-analysis of the deposited data

How the results depend on the processing

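The direction of all 7 members was the same under every alternative run. Fcgr1 kept its call under other scalings, filters and identifiers and with DESeq2, and lost it with a replicate block (-0.32, adjusted p = 0.0895), with limma on log2(FPKM + 1) (-0.31, 0.0800), on log2(FPKM + 0.1) (-0.33, 0.0788) and without a filter (-0.31, 0.109), and without any 1 library (-0.34 to -0.30). Syk lost its call with the same block (0.38, adjusted p = 0.0735) and limma fits (0.34 in each, with 0.0816, 0.0890 and 0.140), and gave 0.34 to 0.42 with 1 library left out. Fcgr2b and Fcgr4 gained a call with DESeq2 (0.34, adjusted p = 0.00821, and 0.41, 0.0499) and with its filter set for 0.05, an alternative chosen after seeing the data (0.34, 0.00742, and 0.41, 0.0456). With 1 library left out Fcgr3 ranged from 0.05 to 0.17, Fcgr4 from 0.24 to 0.54, Fcgr2b from 0.24 to 0.43, Fcer1g from 0.02 to 0.15 and Fcgrt from 0.01 to 0.21, none called. In the same fits the log2 ratio of Fcgr1 to Fcgr2b ranged from -0.71 to -0.56, of Fcgr3 from -0.22 to -0.13 and of the sum from -0.13 to -0.02, while that of Fcgr4 ranged from -0.06 (without Van 1) to 0.27. With CPM in place of FPKM the ratios were -0.67, -0.22, 0.05 (Fcgr4) and -0.17 (the sum), against -0.62, -0.16, 0.11 and -0.08, and with 1 FPKM added they were -0.60, -0.16, 0.11 and -0.07.

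The number of members called was 2 in edgeR, 4 with either DESeq2 setting, 0 with the block and with each limma fit, and 0 to 1 with 1 library left out. Over all genes it was 322 in edgeR (174 higher), 962 with DESeq2 and 983 with its filter set for 0.05, 110 with the block, 19, 20 and 11 in the limma fits at 1, at 0.1 and without a filter, and 21 (without Van 2) to 136 (without Con 1) with 1 library left out. The share called higher was 54.0% in edgeR, 80.0% to 84.2% in the limma fits, 90.9% without Con 3, 85.7% without Van 2 and 52.2% to 60.0% without any of the other libraries. For the pathway lists it was 6, 15 with DESeq2 and 0 to 2 with 1 library left out. The causes of these differences between tools were not tested, beyond the smaller number of libraries in the fits without one, which leave 2 in a group.

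Over all genes tested, same-numbered Con and Van libraries did not deviate together (correlations of 0.0253, -0.00192 and -0.0726). Such correlations cannot show whether same-numbered mice shared a cage or a day. With the block, the SE went from 0.11 to 0.06 for Fcgrt, from 0.15 to 0.11 for Fcgr4 and from 0.06 to 0.07 for Syk. For the other members it stayed the same to 2 decimals. The fold changes of Fcgr1 (-0.32) and Syk (0.38), which lost their calls, were those of the main fit. With the block, adjusted p was 0.0789 for Pik3r1, 0.0505 for Ubash3b, 0.107 for Clec12a and 0.0948 for Dock2, and 0.0481 for Siglece and 0.0383 for Pecam1 and for Vcam1. With 3 libraries per group the permutation tests cannot reach 0.05, and FPKM carries no depth of its own.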
